A study of Mus musculus with 21 samples.

Results

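The mitochondrial carrier family Slc25 was followed through a left ventricle dataset by its gene symbols. All probe sets annotated to a single gene whose symbol starts with Slc25a were taken, which gave 50 probe sets for 46 of the 19937 genes measured. Where a gene had several probe sets, the one with the highest mean over the 21 arrays was used. Of these 46 genes, 37 passed the filter on low values, a log2 level of at least 5 on at least 3 arrays. The other 9, Slc25a2, Slc25a14, Slc25a18, Slc25a21, Slc25a31, Slc25a41, Slc25a48, Slc25a53 and Slc25a54, did not pass it, and no test is given for them. Counts below refer to the 37 that passed, not to the whole family.

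RNA from the left ventricle myocardium of mice aged 9 to 13 weeks was hybridised to Affymetrix gene arrays, 1 sample per array, and values are log2 levels from RMA. MCM mice carry the transgene Tg(αMHC-MerCreMer), with an α-myosin heavy chain promoter that makes cardiomyocytes express a tamoxifen-inducible Cre recombinase. The groups were MCM mice given tamoxifen on 4 consecutive days (3 arrays), MCM mice given control injections on 4 days (3 arrays), MCM mice given tamoxifen on 1 day (3 arrays) and MCM mice given a control injection on 1 day (3 arrays). Wild-type (WT) mice had tamoxifen on 4 days (3 arrays) or control injections on 4 days (6 arrays). Tamoxifen was given intraperitoneally at 40 mg/kg, and every mouse was sacrificed 4 days after its final dose. Groups of 3 were made up of 1 male and 2 females, and the 6 WT controls of 3 males and 3 females. The labels name no floxed allele in any group, and nothing in them states that each sample came from a separate animal, so p-values measure the spread between these samples.

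Slc25 carriers are membrane proteins built from repeated transmembrane segments, nearly all of them in the inner mitochondrial membrane, where each moves a defined set of solutes between the cytosol and the matrix. In the heart they exchange ADP for ATP, bring in phosphate and acylcarnitines, run the malate-aspartate shuttle and carry iron, nucleotides and cofactors. A few members lie in other membranes, and the substrates of several are not settled.

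Arrays of MCM mice after 4 tamoxifen injections were less alike than those of the other groups. Their pairwise correlation over all genes ran from 0.918 to 0.974, and in every other group it was at least 0.982. The mean variance of the 37 carriers was 0.150 in that group and 0.0132 to 0.0277 in the others, and 24 of the 37 had their widest SD there. The median carrier stood 0.08, -0.01 and -0.26 log2 units from the mean of the matched controls on replicates 1, 2 and 3, against 0.06, 0.01 and -0.01 for the median of all genes. Several values rest on replicate 3, and the main ones are given without it as well. The p-values rest on 1 spread estimated over all 21 arrays, which is on average narrower than that of the MCM 4-tamoxifen arrays alone.

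Markers of other cells moved in the same comparison. All 12 macrophage and monocyte markers tested were called higher after 4 tamoxifen injections in MCM mice, with a median change of 1.04, and without replicate 3 the call held for 11 of them, with a median of 0.67. Their mean level was 6.86 to 8.23 on the 3 MCM 4-tamoxifen arrays, against 6.41 to 6.44 in MCM 4-control ventricles, and it was highest on replicate 3, where the markers' median difference from the controls was 1.82. The mean of the 10 cardiomyocyte markers was 11.59 to 12.04 in MCM 4-tamoxifen ventricles, against 12.15 to 12.17 in MCM 4-control ventricles, with Ryr2, Pln and Ttn called lower. The other 7 were not called, and the median change of the list was -0.09. Without replicate 3 the same 3 were called lower, Mybpc3 was called higher (0.22, limma adjusted p = 0.0369), and the median was -0.02. Atrial markers differed between single ventricles: Myl7, the atrial myosin light chain, was at 4.07, 4.72 and 5.04 in MCM 4-tamoxifen ventricles, against 8.60, 8.11 and 8.43 in MCM 4-control ventricles. It was at 4.22 to 7.02 in WT 4-control ventricles and at 4.03, 4.05 and 8.93 in MCM 1-control ventricles. MCM 4-control, the reference of this comparison, was the only group with every array at 8.11 or more. The mean of the atrial markers tested was 9.21 to 9.62 there, against 6.34 to 8.55 in WT 4-control ventricles. Sln and Bmp10 of the atrial list, 4 of 6 adipose and 4 of 5 skeletal muscle markers and erythroid Epb42 did not pass the filter. The mean of the 7 fibroblast markers was 8.35, 8.45 and 9.50 in MCM 4-tamoxifen ventricles, against 8.18 to 8.38 in MCM 4-control ventricles. On replicate 3 it stood far above the others, with Postn, a matrix protein of activated fibroblasts, at 7.59, 7.65 and 11.14 in MCM 4-tamoxifen ventricles, against 7.16, 6.93 and 7.34 in MCM 4-control ventricles, while the list's median difference on replicate 3 was 0.22. None of the 7 fibroblast, 2 erythroid, 1 adipose and 1 skeletal muscle markers tested was called, and of the 6 endothelial markers Cdh5 and Erg were called lower, Erg also without replicate 3. Of the 3 atrial markers tested, Myl7 was called lower, and Myl4 and Nppa were not called. Myl4 was at 6.73, 7.29 and 7.32 in MCM 4-tamoxifen ventricles, against 9.45, 8.99 and 9.22 in MCM 4-control ventricles. Nppa went the other way on replicates 2 and 3, with 10.52, 11.95 and 12.59, against 10.81, 10.52 and 10.67 in MCM 4-control ventricles. What these shifts contribute to the carrier values was not tested. In bulk tissue, fewer cells of a type and less RNA per cell cannot be told apart.

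The first question was how the carriers changed after 4 tamoxifen injections in MCM mice. Aspartate-glutamate carrier Slc25a13, S-adenosylmethionine carrier Slc25a26 and Slc25a34, whose substrate is not settled, fell most clearly, and the ATP-magnesium/phosphate carrier Slc25a25, the peroxisomal cofactor carrier Slc25a17 and the branched-chain amino acid carrier Slc25a44 rose. The main ADP/ATP carrier of heart, Slc25a4, and the phosphate carrier Slc25a3 did not pass the test. In total 12 of the 37 carriers were called at a limma adjusted p under 0.05, which is 32.4%, and 23.3% of all 11384 genes tested were called. Higher calls numbered 5 (13.5%, against 13.9% of all genes) and lower calls 7 (18.9%, against 9.41% of all genes). The median change was -0.07 over the 37 carriers and 0.01 over all genes. Groups did not overlap for 11 carriers (29.7%), and for 27.9% of all genes. A second quantile normalization gave 3 higher and 8 lower. The count was 6 when arrays were weighted by the variance of their own group and 7 without MCM 4-tamoxifen replicate 3 or without MCM 4-control replicate 3. The 6 that group-variance weights left were Slc25a11, Slc25a13, Slc25a17, Slc25a26, Slc25a34 and Slc25a44. With any 1 of the 21 arrays left out, 7 carriers stayed called, namely Slc25a13, Slc25a17, Slc25a25, Slc25a26, Slc25a34, Slc25a38 and Slc25a44. The count was 0 when only the 6 arrays compared entered the fit, where 18 of all genes were called.

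**Figure D1:**
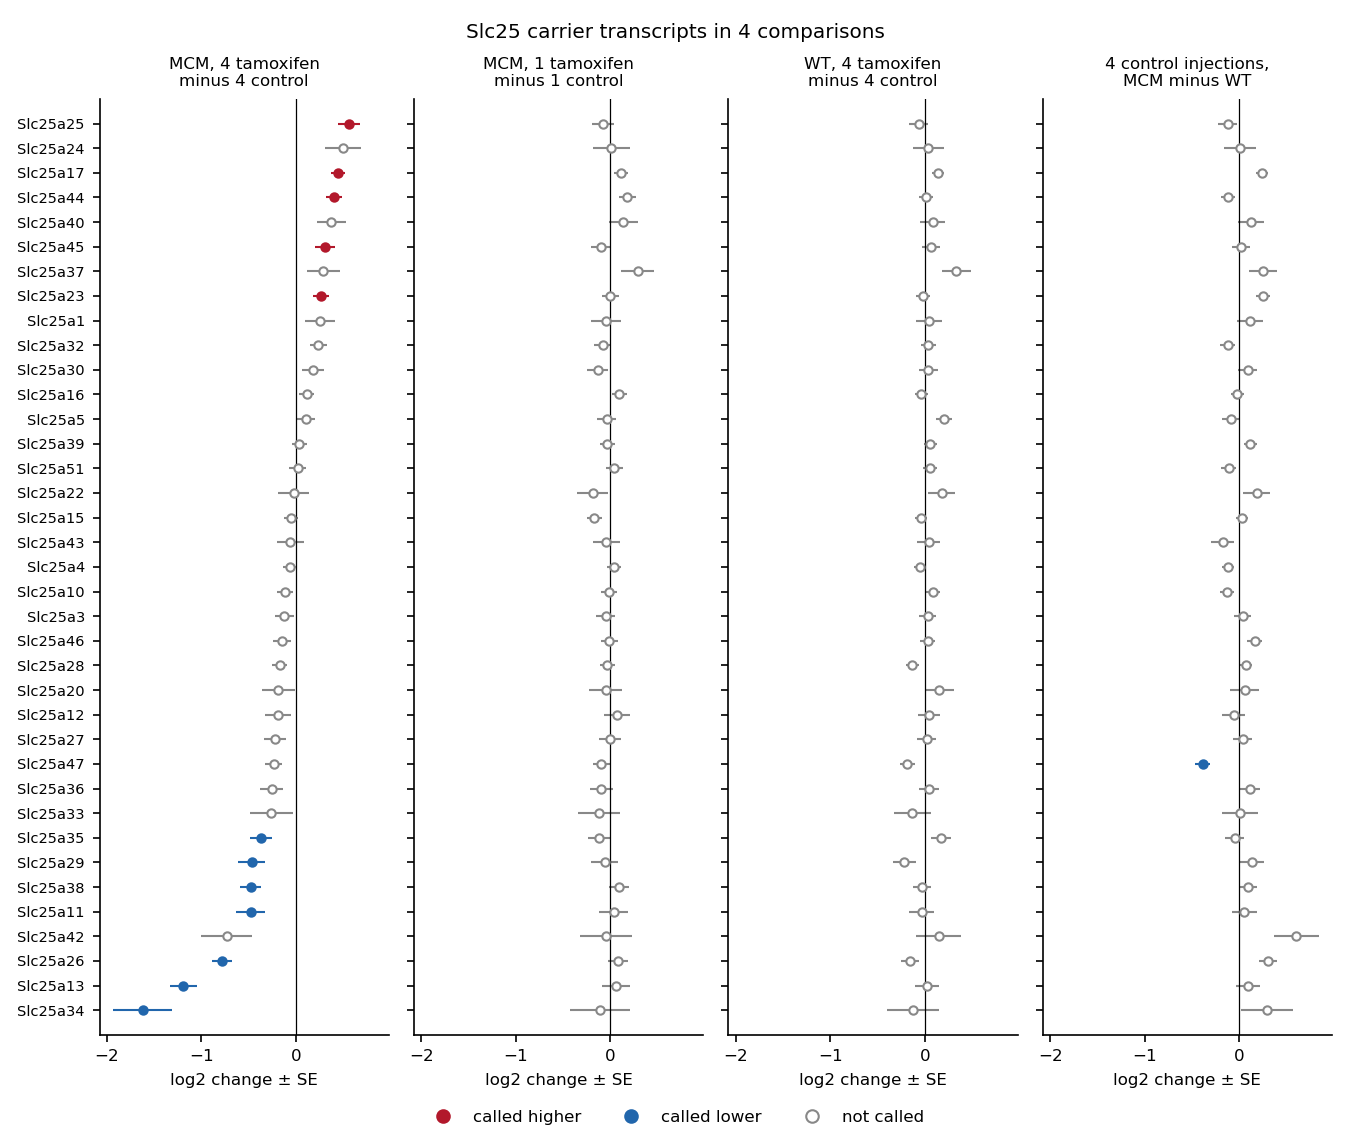
Log2 change with its SE (x axis) of the 37 carriers that passed the filter (rows, ordered by the first column) in 4 comparisons: MCM mice after 4 tamoxifen minus 4 control injections, MCM mice after 1 tamoxifen minus 1 control injection, WT mice after 4 tamoxifen minus 4 control injections, and MCM minus WT mice after 4 control injections. Filled red and blue points were called higher and lower at an adjusted p under 0.05. The first column holds 12 filled points between -1.62 and 0.56, the middle columns hold none and the last holds only Slc25a47 at -0.39.

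Promoter sequence is shown for the carrier with the largest fall, the one with the largest rise and the one with the smallest p. The windows are the 250 bases before a gene's annotated start, from RefSeq on GRCm38.p6, all on the minus strand and written 5′ to 3′ along the gene. For Slc25a34 (chr4:141623892-141624084) and Slc25a13 (chr6:6217305-6217423) only the bases outside the annotated gene are printed. The Slc25a25 window (chr2:32424067-32424316) precedes 1 of 3 annotated starts and lies inside the gene's longest annotation. Of the gene's 3 windows, the first that held a searched motif was the one printed.
Slc25a34: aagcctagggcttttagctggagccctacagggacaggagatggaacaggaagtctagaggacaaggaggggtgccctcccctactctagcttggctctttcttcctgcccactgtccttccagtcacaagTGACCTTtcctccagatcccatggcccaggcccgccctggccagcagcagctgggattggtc
Slc25a25: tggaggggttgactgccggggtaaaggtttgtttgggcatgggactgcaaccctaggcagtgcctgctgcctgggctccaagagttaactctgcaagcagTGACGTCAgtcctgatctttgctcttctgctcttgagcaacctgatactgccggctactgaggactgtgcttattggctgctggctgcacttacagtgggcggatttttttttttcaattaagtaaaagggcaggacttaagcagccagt
Slc25a13: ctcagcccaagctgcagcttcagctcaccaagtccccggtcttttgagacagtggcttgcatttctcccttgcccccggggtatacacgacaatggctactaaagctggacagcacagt
Capitals mark matches to searched motifs. AAGGTCA is the core bound by oestrogen-related receptors and TGACGTCA is the cAMP response element, and each was searched on both strands. No motif overlapped another in the printed windows. AAGGTCA occurred in 4.08% of 32851 windows and in 1 of the 36 carrier genes with a window, Slc25a34, where it reads TGACCTT on the gene's strand, 119 to 113 bases before the start. TGACGTCA occurred in 1.55% of windows and in Slc25a25 (150 to 143 bases before the start) and Slc25a36. The percentages count windows, whereas a carrier gene counted if any of its windows held the motif. Slc25a25 has 3 windows, so its count is not on the same scale. The printed Slc25a13 bases hold neither motif.

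Counts by substrate group and gene list follow, where 23.3% of all genes were called, 13.9% higher and 9.41% lower. The groups are small, and their counts were not tested against these shares. Among carriers of adenine nucleotides and phosphate, 2 of the 6 tested were called, both higher, with a group median of 0.18. Slc25a4, which exchanges matrix ATP for cytosolic ADP, was at 12.40, 12.41 and 12.11 in MCM 4-tamoxifen ventricles, against 12.36, 12.40 and 12.35 in MCM 4-control ventricles. Its change of -0.07 (95% interval -0.22 to 0.08, limma adjusted p = 0.539) lay within the spread between replicates. Only replicate 3 was below the control range, and without it the change was 0.03.

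Slc25a5, the ADP/ATP carrier found in many tissues, was at 11.38, 11.37 and 11.56 in MCM 4-tamoxifen ventricles, against 11.36, 11.42 and 11.21 in MCM 4-control ventricles. The change was 0.11 (95% interval -0.11 to 0.32), the groups overlapped, and its other two probe sets gave 0.06 and -0.15. Slc25a3, which brings phosphate into the matrix for ATP synthesis, was at 10.83, 10.86 and 10.31 in MCM 4-tamoxifen ventricles, against 10.71, 10.88 and 10.78 in MCM 4-control ventricles. Again only replicate 3 lay outside the controls, and the change of -0.12 (95% interval -0.34 to 0.09) was 0.06 without it.

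Both calls were ATP-magnesium/phosphate carriers, which bind calcium on the cytosolic side and adjust the matrix pool of adenine nucleotides. Slc25a25 was at 5.93, 5.87 and 5.99 in MCM 4-tamoxifen ventricles, against 5.34, 5.46 and 5.30 in MCM 4-control ventricles. All 3 tamoxifen arrays were above every array of the other groups, of which the highest was a WT control at 5.74. The rise was 0.56 (SE 0.117, limma adjusted p = 0.00255), or 1.48-fold, from a level close to the filter. Slc25a23 was at 7.90, 8.01 and 7.95 in MCM 4-tamoxifen ventricles, against 7.56, 7.94 and 7.56 in MCM 4-control ventricles. The groups overlapped through MCM 4-control replicate 2, and the rise of 0.26 (SE 0.0858, limma adjusted p = 0.0336) lost its call after a second quantile normalization and without MCM 4-control replicate 1 or 3 or any MCM 4-tamoxifen array. Slc25a24, the third of these carriers, changed by 0.50 with an adjusted p of 0.0689, and its replicate 3 at 6.87 stood far above replicate 2 at 5.73. Without replicate 3 its change was 0.15 (adjusted p = 0.428).

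Among the partners of ADP and ATP exchange, 3 of 8 genes tested were called, 1 higher and 2 lower, with a median of -0.24. Ppif, the cyclophilin of the mitochondrial matrix that regulates the permeability transition, fell by 0.63 (limma adjusted p = 0.00459). Hk2, a hexokinase that docks on mitochondria, fell by 0.49 (adjusted p = 0.00552), and Atpif1, the inhibitor of the mitochondrial ATP synthase, rose by 0.29 (adjusted p = 0.0187).

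Among amino acid and glutathione carriers, 3 of 7 were called (against 23.3% of all genes), 1 higher and 2 lower, with a median of -0.02. Slc25a13, known as citrin, and Slc25a12, known as aralar, are the paired calcium-regulated aspartate-glutamate carriers of the malate-aspartate shuttle, which moves reducing equivalents from cytosolic NADH into the matrix. Slc25a13 was at 8.60, 8.86 and 8.11 in MCM 4-tamoxifen ventricles, against 9.75, 9.49 and 9.90 in MCM 4-control ventricles. Every tamoxifen array was below all 18 arrays of the other groups, which ran from 9.44 to 9.93. The fall was 1.19 on the log2 scale (change -1.19, SE 0.144, limma adjusted p = 2.27e-05), or 2.28-fold, and it was 0.97 (change -0.97) without replicate 3.

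Slc25a12 was at 10.40, 10.49 and 9.67 in MCM 4-tamoxifen ventricles, against 10.33, 10.32 and 10.47 in MCM 4-control ventricles. Replicates 1 and 2 were within or just above the control range, and replicate 3 was below every control array. The change was -0.19 (95% interval -0.48 to 0.10, adjusted p = 0.326) and 0.08 without replicate 3. The difference between the changes of the 2 paralogues was not tested. Of 7 further genes of the shuttle and of pyruvate entry, 3 were called lower and 0 higher, with a median of -0.24. They were the cytosolic enzymes Mdh1 (change -0.47, adjusted p = 0.00873) and Got1 (change -0.31, adjusted p = 0.0315) and the pyruvate carrier subunit Mpc1 (change -0.46, adjusted p = 0.0215). Without replicate 3, Mdh1 (-0.24) was called, and Got1 (-0.14) and Mpc1 (-0.25) were not. Gpd1 of the same list was then called higher (0.87, limma adjusted p = 0.00401). It was at 9.25, 8.05 and 7.52 in MCM 4-tamoxifen ventricles, against 7.77, 7.81 and 7.61 in MCM 4-control ventricles.

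Slc25a38, which brings glycine into mitochondria for haem synthesis, was at 7.25, 7.21 and 7.01 in MCM 4-tamoxifen ventricles, against 7.86, 7.33 and 7.71 in MCM 4-control ventricles. The groups did not overlap, although MCM 4-control replicate 2 lay close to the tamoxifen arrays. The fall was 0.48 (change -0.48, SE 0.110, limma adjusted p = 0.00506). Slc25a44, a carrier of branched-chain amino acids, was at 7.42, 7.10 and 7.06 in MCM 4-tamoxifen ventricles, against 6.86, 6.79 and 6.72 in MCM 4-control ventricles. It rose by 0.40 (SE 0.0856, limma adjusted p = 0.00293), with no overlap between the groups. Slc25a22 (-0.02), a glutamate carrier, and the glutathione carriers Slc25a39 (0.04) and Slc25a40 (0.38, and 0.10 for its other probe set) were not called.

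**Figure D2:**
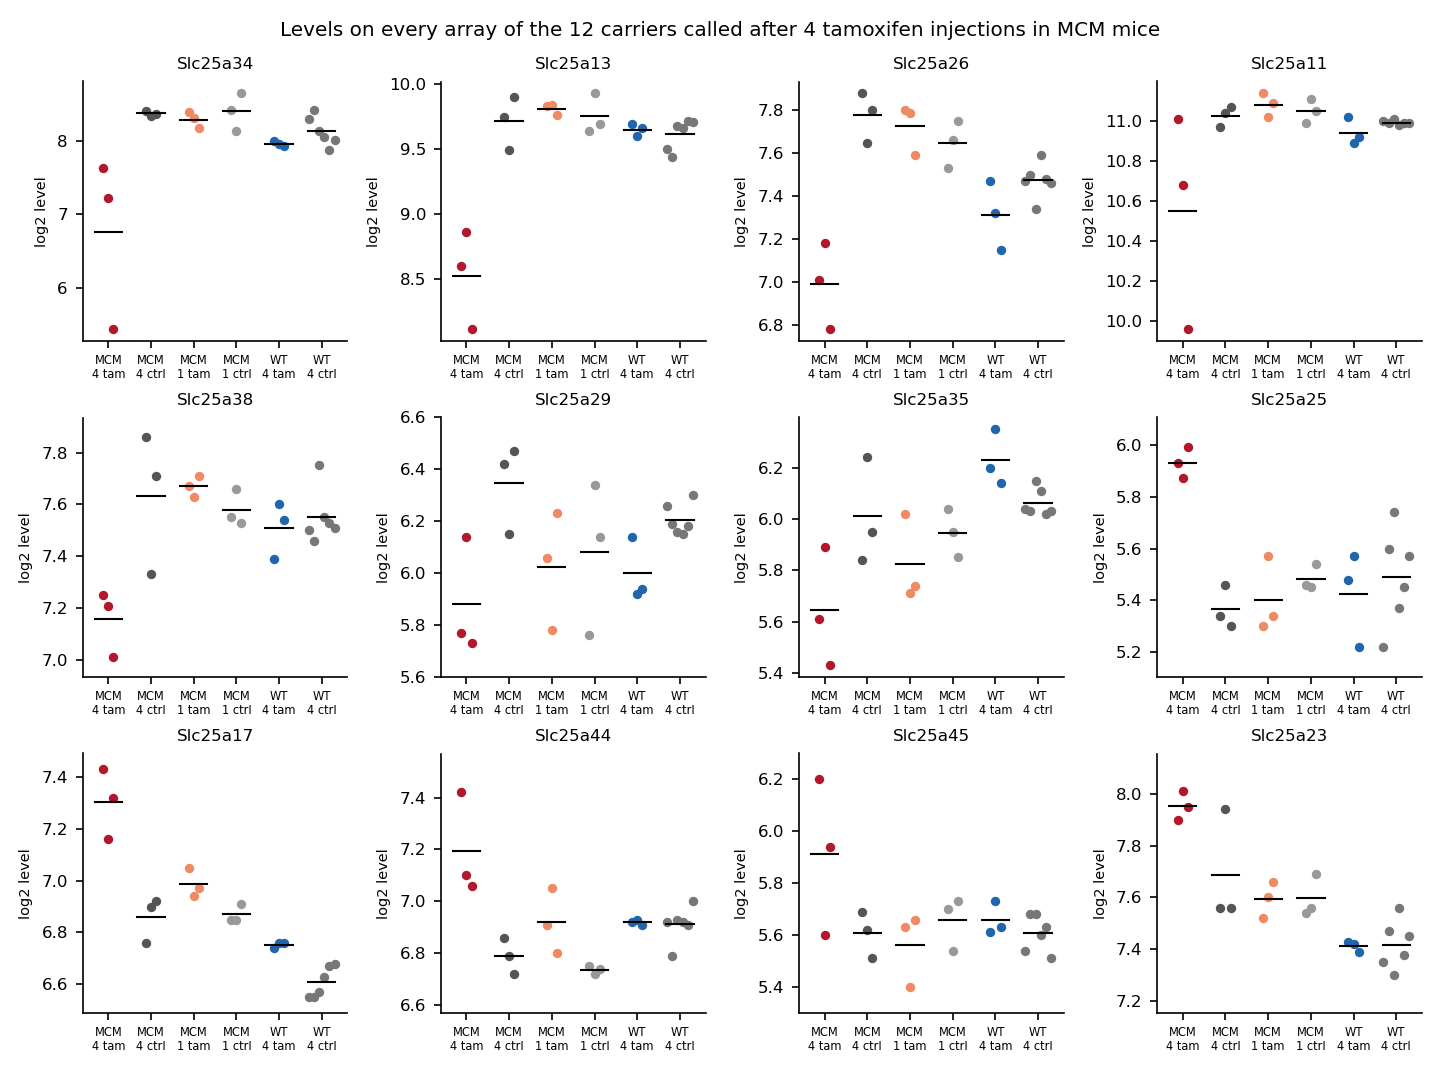
Log2 level on every array (points) and group mean (lines) of the 12 carriers called after 4 tamoxifen injections in MCM mice, with the 7 lower carriers first and the 5 higher ones after them. Groups run from MCM 4 tamoxifen at the left to WT 4 control at the right, and each panel has its own y axis. The MCM 4-tamoxifen arrays of Slc25a13 (8.11 to 8.86) lie below all other arrays and those of Slc25a25 (5.87 to 5.99) above them, while those of Slc25a11 and Slc25a34 spread widely.

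Carriers of cofactors and nucleotides gave 2 calls among 8 (against 23.3% of all genes), 1 in each direction, with a median of -0.12. Slc25a26 imports S-adenosylmethionine, the methyl donor for mitochondrial RNA, DNA and protein. It was at 7.01, 7.18 and 6.78 in MCM 4-tamoxifen ventricles, against 7.88, 7.65 and 7.80 in MCM 4-control ventricles. The groups did not overlap, and the fall was 0.78 (change -0.78, SE 0.107, limma adjusted p = 7.05e-05), or 1.72-fold. Slc25a17, a carrier of coenzyme A, FAD and NAD in the peroxisomal membrane, was at 7.43, 7.16 and 7.32 in MCM 4-tamoxifen ventricles, against 6.76, 6.90 and 6.92 in MCM 4-control ventricles. It rose by 0.45 (SE 0.0735, limma adjusted p = 0.00041), and its tamoxifen arrays were above all others.

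Slc25a42, a mitochondrial coenzyme A carrier, was at 7.69, 6.96 and 5.71 in MCM 4-tamoxifen ventricles, against 7.71, 7.68 and 7.16 in MCM 4-control ventricles. Replicate 1 was inside the control range and replicate 3 far below it, so the change of -0.73 (95% interval -1.30 to -0.16) did not pass the test (adjusted p = 0.059) and was -0.24 without replicate 3. It was called without replicate 1 (-1.10, adjusted p = 0.00503) or replicate 2 (-0.89, adjusted p = 0.0303), after a second quantile normalization (-0.76) and with a stricter filter on low values. The folate and FAD carrier Slc25a32 had no overlap between groups but an adjusted p of 0.0576 for a change of 0.24. The other 4, Slc25a16, the pyrimidine nucleotide carriers Slc25a33 and Slc25a36 and the NAD carrier Slc25a51, ran from -0.26 to 0.12 with none called.

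The carriers of carnitine and basic amino acids and of di- and tricarboxylates gave 1 lower call in each group of 3 (against 9.41% of all genes). Slc25a20 passes acylcarnitines into the matrix for fatty acid oxidation. It was at 10.74, 10.31 and 9.47 in MCM 4-tamoxifen ventricles, against 10.46, 10.28 and 10.34 in MCM 4-control ventricles. The tamoxifen arrays lay above, inside and below the control range, and the change of -0.19 (95% interval -0.55 to 0.18) was 0.15 without replicate 3. Of the 4 other carnitine shuttle genes tested, 2 were called lower, Cpt2 (change -0.71, adjusted p = 0.0283) and the carnitine importer Slc22a5 (change -0.56, adjusted p = 0.0446), and the median was -0.42. Cpt2, which reforms acyl-CoA in the matrix, was at 9.86, 9.42 and 8.25 in MCM 4-tamoxifen ventricles, against 9.95, 9.96 and 9.75 in MCM 4-control ventricles. Slc22a5 was at 6.92, 6.43 and 5.57 in MCM 4-tamoxifen ventricles, against 6.93, 6.91 and 6.76 in MCM 4-control ventricles. Replicate 1 lay within the control range for both, and without replicate 3 neither was called, with changes of -0.27 for Cpt2 and -0.22 for Slc22a5.

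Slc25a29, a carrier of basic amino acids, was at 5.77, 6.14 and 5.73 in MCM 4-tamoxifen ventricles, against 6.42, 6.15 and 6.47 in MCM 4-control ventricles. The nearest arrays of the groups were 6.14 and 6.15, and the change of -0.47 (SE 0.141, limma adjusted p = 0.0241) lost its call without replicate 1 or 3, or without MCM 4-control replicate 1 or 3. Without tamoxifen replicate 3 it was -0.38. Slc25a11, the oxoglutarate carrier that is the other exchanger of the malate-aspartate shuttle, was at 11.01, 10.68 and 9.96 in MCM 4-tamoxifen ventricles, against 10.97, 11.04 and 11.07 in MCM 4-control ventricles. Replicate 1 was within the control range. The change of -0.48 (SE 0.152, limma adjusted p = 0.0301) was -0.19 and not called without replicate 3, and the call was also lost without MCM 4-control replicate 2 or 3. The ornithine carrier Slc25a15 (-0.05), the citrate carrier Slc25a1 (0.25) and the dicarboxylate carrier Slc25a10 (-0.12) were not called.

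Slc25a34 had the largest change of the family. It was at 7.64, 7.22 and 5.43 in MCM 4-tamoxifen ventricles, against 8.42, 8.35 and 8.38 in MCM 4-control ventricles. All 3 tamoxifen arrays were below every array of the other groups, of which the lowest was a WT control at 7.89, but they were far apart from each other. The fall was 1.62 (change -1.62, SE 0.317, limma adjusted p = 0.00158), or 3.08-fold, and without replicate 3 the change was -0.99 and still called. Its close relative Slc25a35 was at 5.61, 5.89 and 5.43 in MCM 4-tamoxifen ventricles, against 5.84, 6.24 and 5.95 in MCM 4-control ventricles. These groups overlapped, and the change of -0.37 (SE 0.118, limma adjusted p = 0.031) was not called without replicate 3 (-0.26) or without MCM 4-control replicate 2 (-0.25). The call was also lost without MCM 4-tamoxifen replicate 1 or MCM 4-control replicate 3.

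Slc25a45 was at 6.20, 5.60 and 5.94 in MCM 4-tamoxifen ventricles, against 5.69, 5.62 and 5.51 in MCM 4-control ventricles. Replicate 2 was inside the control range, and the rise of 0.31 (SE 0.106, limma adjusted p = 0.0446) was 0.18 and not called without replicate 1. It was called without only 8 of the 21 arrays in turn. The other 3 of this mixed group, Slc25a43, Slc25a46 and Slc25a47, were not called, nor were the uncoupling protein-like Slc25a27 (-0.23) and Slc25a30 (0.18).

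The mitoferrins, which bring iron into mitochondria for haem and iron-sulfur clusters, were not called. Slc25a37 was at 6.82, 5.97 and 5.94 in MCM 4-tamoxifen ventricles, against 5.95, 6.10 and 5.81 in MCM 4-control ventricles. The single high array decided its change of 0.29 (95% interval -0.08 to 0.66), which was 0.01 without replicate 1. Of the MCM 4-tamoxifen arrays, the erythroid list stood highest on the same one, with a median difference of 0.57 over the 2 markers tested, and its part was not tested. Slc25a37 also changed by 0.29 after 1 tamoxifen injection in MCM mice (95% interval -0.08 to 0.66). In WT mice after 4 injections it changed by 0.33 (95% interval 0.01 to 0.65). Neither was called, and the groups overlapped in both. Slc25a28 was at 6.95, 7.04 and 6.80 in MCM 4-tamoxifen ventricles, against 7.19, 7.01 and 7.10 in MCM 4-control ventricles, with a change of -0.17 (95% interval -0.34 to -0.01, adjusted p = 0.113). Of 16 other genes of mitochondrial iron and haem, 2 were called higher and 2 lower, with a median of -0.12. The haem-degrading enzyme Hmox1 rose by 2.43 (adjusted p = 1.06e-07) and Fth1, the ferritin heavy chain, by 0.16 (adjusted p = 0.0485). The iron-sulfur scaffold Iscu (change -0.58, adjusted p = 0.00292) and the iron exporter Slc40a1 (change -0.80, adjusted p = 0.0204) fell. Without replicate 3, Fth1 (0.16, adjusted p = 0.0642) and Slc40a1 (-0.53, adjusted p = 0.117) were not called. Cpox of the same list was then called higher (0.51, limma adjusted p = 0.0053), and the list's median was 0.08.

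**Figure D3:**
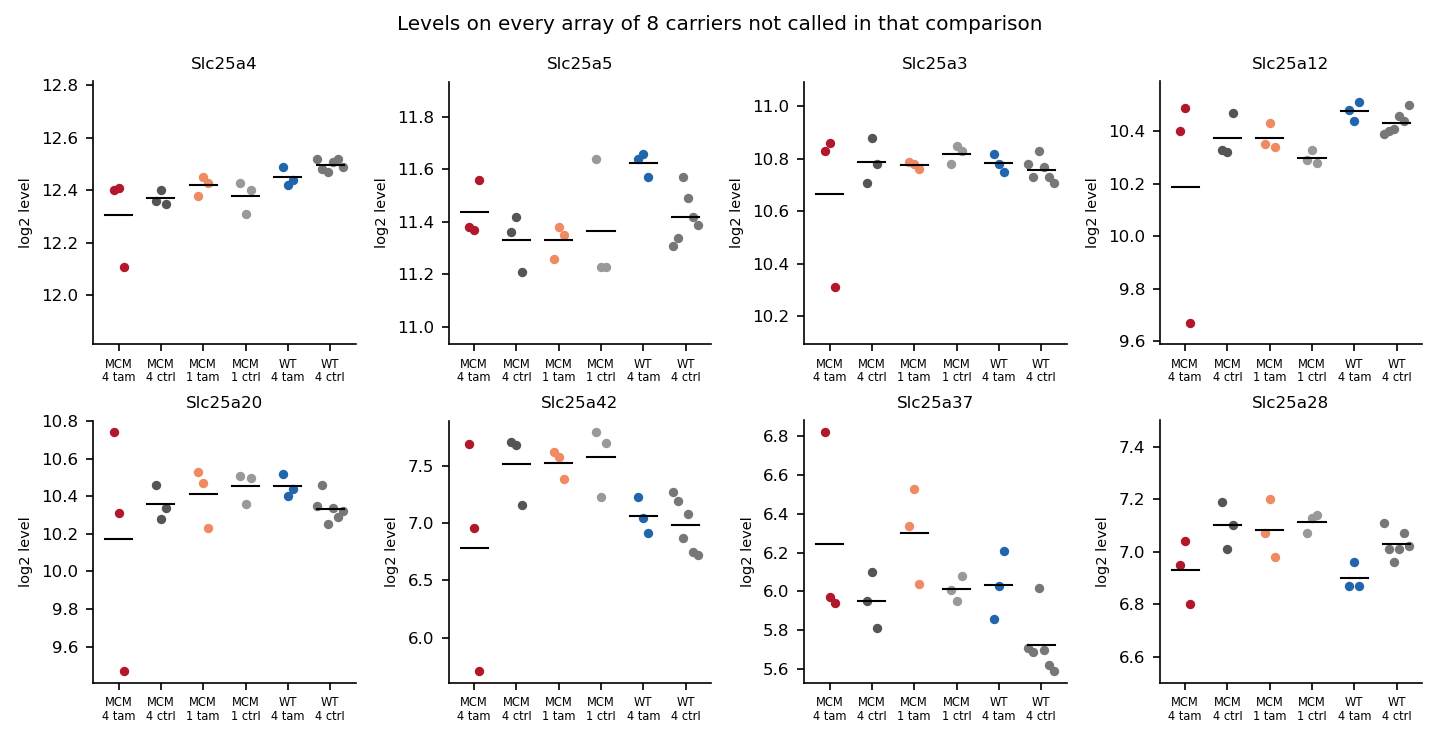
Log2 level on every array (points) and group mean (lines) of 8 carriers of energy and iron transport that were not called after 4 tamoxifen injections in MCM mice. Groups run from MCM 4 tamoxifen at the left to WT 4 control at the right, and each panel has its own y axis. For Slc25a3, Slc25a4, Slc25a12 and Slc25a20, 1 MCM 4-tamoxifen array (replicate 3 at 10.31, 12.11, 9.67 and 9.47) lies below every array of the other groups, and for Slc25a37 replicate 1 at 6.82 lies above them.

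Genes of carrier import and of mitochondrial gene regulation were counted in the same comparison. Of the 15 tested genes of the import machinery that inserts carriers into the membranes, 1 rose (Tomm70a, a receptor for carrier precursors, by 0.27, adjusted p = 0.0422) and 1 fell (Tomm5, change -0.46, adjusted p = 0.00938), with a median of -0.09. Tomm70a (0.15) was not called without replicate 3, and Tomm40 (-0.29) then was. Of 8 regulators of mitochondrial genes, 5 were called lower and 0 higher, with a median of -0.39. Ppargc1a, a coactivator of mitochondrial gene expression, was at 6.69, 7.58 and 6.14 in MCM 4-tamoxifen ventricles, against 8.21, 8.23 and 7.99 in MCM 4-control ventricles (change -1.34, adjusted p = 0.000416). These groups did not overlap.

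The oestrogen-related receptor Esrrg was at 7.10, 6.95 and 6.52 in MCM 4-tamoxifen ventricles, against 7.80, 7.92 and 7.85 in MCM 4-control ventricles (change -0.997, adjusted p = 8.92e-06). Ppara, the receptor for fatty acids, fell by 0.82 (adjusted p = 0.0122) and Esrra by 0.32 (adjusted p = 0.0164). Without replicate 3, Ppargc1a (-0.99) and Esrrg (-0.84) were the 2 regulators called, and Ppara was at -0.46 (adjusted p = 0.0532). Of 8 genes of mitochondrial calcium entry only the uniporter pore Mcu was called (change -0.26, adjusted p = 0.0463), with a median of -0.06, and it was not called without replicate 3 (-0.18). Of 3 relatives of the family without an Slc25a symbol, Mtch1, which lies in the outer membrane, rose by 0.26 (adjusted p = 0.0283), and the median was 0.02.

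**Figure D4:**
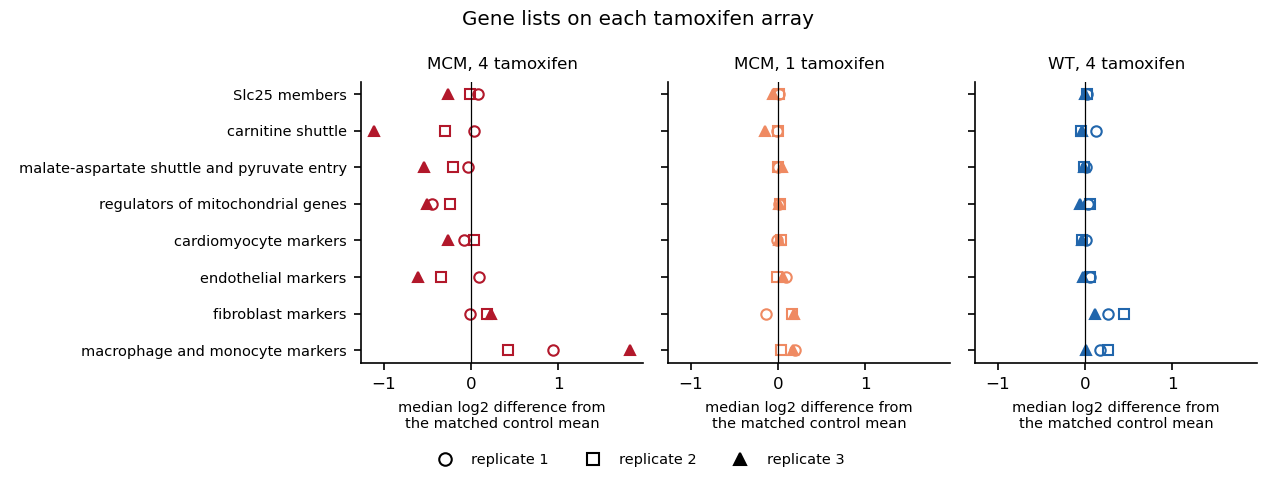
Median log2 difference from the mean of the matched controls (x axis) of the 37 carriers and of 7 gene lists (rows) on each tamoxifen array: MCM 4 tamoxifen, MCM 1 tamoxifen and WT 4 tamoxifen, with 1 symbol per replicate. On MCM 4-tamoxifen replicate 3, marked by filled triangles, the carriers stand at -0.26, the carnitine shuttle genes at -1.11, the cardiomyocyte markers at -0.26 and the macrophage markers at 1.82.

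A single tamoxifen injection in MCM mice gave no call among the 37 carriers by limma, where 0.00878% of all genes were called, and 2 had an unadjusted p under 0.05 (5.41%, against 3.34% of all genes). Groups did not overlap for 4 carriers (10.8%), against 10.4% of all genes. Changes ran from -0.18 to 0.29 with a median of -0.03. Slc25a13 was at 9.83, 9.84 and 9.76 in MCM 1-tamoxifen ventricles, against 9.64, 9.93 and 9.69 in MCM 1-control ventricles, a change of 0.06 (95% interval -0.24 to 0.36). Slc25a34 was at 8.40, 8.32 and 8.18 in MCM 1-tamoxifen ventricles, against 8.43, 8.15 and 8.66 in MCM 1-control ventricles, and its change of -0.11 had a wide interval (-0.78 to 0.56). The groups overlapped for both.

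The difference between the changes after 4 and after 1 tamoxifen injection was tested as an interaction, which uses the same MCM 4-tamoxifen and 4-control arrays. It was called for 4 carriers (10.8%), against 5.78% of all genes, with 3% more negative and 2.78% more positive. Slc25a13 (difference -1.25, adjusted p = 0.00132), Slc25a26 (difference -0.87, adjusted p = 0.00228) and Slc25a38 (difference -0.57, adjusted p = 0.0369) were more negative after 4 injections, and Slc25a25 (difference 0.64, adjusted p = 0.0296) was more positive. Slc25a34 had the largest difference, -1.51, with an adjusted p of 0.0547. Only Slc25a13 and Slc25a26 were called without each of the 21 arrays in turn, and the count was 0 with female arrays only. It was 2 without replicate 1 or 3 of the MCM 1-tamoxifen, 1-control or 4-control group, and 8 without MCM 4-tamoxifen replicate 2.

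WT mice were used to ask whether 4 tamoxifen injections moved the carriers without the transgene. None of the 37 was called by limma, nor was any gene (0%), and 4 carriers had an unadjusted p under 0.05 (10.8%, against 2.59% of all genes). These 4 were Slc25a37 (0.33), Slc25a5 (0.21), Slc25a17 (0.14) and Slc25a47 (-0.18). Changes ran from -0.21 to 0.33 with a median of 0.04. Groups did not overlap for 2 carriers (5.41%), against 3.42% of all genes, namely Slc25a17 (higher) and Slc25a29 (lower, change -0.21). Slc25a13 was at 9.69, 9.60 and 9.66 in WT 4-tamoxifen ventricles, against 9.44, 9.67 and 9.72 (lowest, median, highest) in WT 4-control ventricles, a change of 0.02 (95% interval -0.24 to 0.29). Slc25a25 was at 5.48, 5.57 and 5.22 in WT 4-tamoxifen ventricles, against 5.22, 5.51 and 5.74 (lowest, median, highest) in WT 4-control ventricles, a change of -0.06 (95% interval -0.28 to 0.15). Both groups overlapped. Slc25a17 was at 6.74, 6.76 and 6.76 in WT 4-tamoxifen ventricles, against 6.55, 6.60 and 6.68 (lowest, median, highest) in WT 4-control ventricles, a change of 0.14 that did not pass the test (adjusted p = 1.00). Its groups did not overlap, and the unadjusted limma p was 0.0387. After 1 injection in MCM mice Slc25a17 changed by 0.11, also with no overlap and no call. The difference between its changes in MCM and WT mice, 0.30, was not called (limma adjusted p = 0.0635).

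Whether the change differed between the genotypes was again tested as an interaction. It was called for 6 carriers (16.2%), against 7.98% of all genes. More negative calls made up 3.53% of all genes and more positive ones 4.45%. The change was more negative in MCM than in WT mice for Slc25a34 (difference -1.50, SE 0.42, adjusted p = 0.0349), Slc25a13 (difference -1.22, SE 0.190, adjusted p = 0.000767), Slc25a26 (difference -0.63, SE 0.142, adjusted p = 0.0109) and Slc25a35 (difference -0.54, SE 0.156, adjusted p = 0.0407). It was more positive for Slc25a25 (difference 0.63, SE 0.155, adjusted p = 0.0188) and Slc25a44 (difference 0.39, SE 0.114, adjusted p = 0.0422). For Slc25a35 the effects lay on opposite sides of 0, with -0.37 in MCM mice and 0.17 in WT mice, and only the first was called. Slc25a13 and Slc25a26 were called without each of the 21 arrays in turn, while Slc25a25 was called in 18, Slc25a34 in 13, Slc25a35 in 9 and Slc25a44 in 5 of these 21 fits. With female arrays only, none of the 6 was called. Leaving out any one of 7 arrays lowered the count to 2 or 3, namely MCM 4-control replicate 1 or 3, WT 4-control replicate 5 or 6, or any WT 4-tamoxifen array. Without MCM 4-tamoxifen replicate 2 it was 10.

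MCM and WT mice were also compared after 4 control injections, so without tamoxifen. Of the 37 carriers 1 was called (2.7%), lower, against 0.676% of all genes in either direction and 0.132% lower. It was Slc25a47, a carrier best known from liver, at 4.87, 4.99 and 4.81 in MCM 4-control ventricles, against 5.16, 5.23 and 5.49 (lowest, median, highest) in WT 4-control ventricles. The groups did not overlap, but the change of -0.39 (SE 0.081, limma adjusted p = 0.0302) was measured near the filter level of 5. Of the other groups, MCM 4-tamoxifen ventricles had 4.68, 4.71 and 4.57, MCM 1-tamoxifen ventricles 5.07, 5.17 and 5.03, MCM 1-control ventricles 5.20, 5.29 and 5.06 and WT 4-tamoxifen ventricles 5.06, 5.22 and 4.99. The call was lost without any single MCM 4-control array, without WT 4-control replicate 2, 5 or 6, and after a second quantile normalization. It was also lost with no filter, with female arrays only, with the replicate block and with the array cluster as a term. That cluster is a split of the arrays by unannotated probe sets in which all WT arrays fall on the same side. Groups did not overlap for 6 carriers (16.2%), against 12.5% of all genes.

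Of the carriers called after 4 tamoxifen injections, Slc25a17, Slc25a23 and Slc25a26 had no overlap between MCM and WT controls, and the comparisons share the MCM 4-control arrays. Slc25a26 was at 7.88, 7.65 and 7.80 in MCM 4-control ventricles, against 7.34, 7.47 and 7.59 (lowest, median, highest) in WT 4-control ventricles, a change of 0.31 (adjusted p = 0.121) with no overlap. Slc25a17 was at 6.76, 6.90 and 6.92 in MCM 4-control ventricles, against 6.55, 6.60 and 6.68 in WT 4-control ventricles, a change of 0.25 (adjusted p = 0.0803) with no overlap. Slc25a23 had a change of 0.26 (adjusted p = 0.107). None of the 3 passed the test. The count of carriers was 5 with array quality weights or group-variance weights, 4 without MCM 4-tamoxifen replicate 3 and 2 without replicate 1 or 2 of that group.

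Male and female mice were compared through the sex term of the same model. None of the 37 carriers was called by limma, against 0.29% of all genes, and 4 had an unadjusted p under 0.05 (10.8%, against 9.69% of all genes). All 4 had higher estimates in males. They were Slc25a42 (0.41, 95% interval 0.09 to 0.72, adjusted p = 0.37), Slc25a22 (0.32, 95% interval 0.13 to 0.51, adjusted p = 0.209), Slc25a46 (0.14, adjusted p = 0.362) and Slc25a36 (0.14, adjusted p = 0.504). Without MCM 1-control replicate 3, 1 carrier was called.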

How the data were processed

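The deposited values were log2 expression levels made by the authors with RMA, per the submitters' processing notes, with no version given. RMA corrects background, quantile normalizes and summarises probes per probe set, so a shift shared by most genes would be removed. Medians of the 21 arrays lay between 4.57 and 4.72. The number of arrays limits the precision. The genome build of the probe sets is not given in the sources used here.

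Of 34760 probe sets, the platform annotation named 1 gene for 21640, several for 1321 and none for 11799. Genes with a log2 level of at least 5 on at least 3 arrays were tested, 11384 in all. The linear model held 6 group means and sex (limma 3.58.1, lmFit and eBayes, R 4.3.3, all 21 arrays). It left 14 residual degrees of freedom, and eBayes added a prior of 3.98. P-values are two-sided and adjusted by Benjamini-Hochberg over all 11384 genes in each comparison, and a gene was called under 0.05. Intervals are 95%, and linear folds are powers of 2 of the log2 change. The fit was tested on simulated data. The family, gene lists, motifs and tests were chosen with earlier results of these data known.

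For carriers called between a pair of groups, values on every array of that pair are given (WT controls as lowest, median and highest). For Slc25a3, Slc25a4, Slc25a5, Slc25a11, Slc25a12, Slc25a13, Slc25a20, Slc25a28, Slc25a37 and Slc25a42, values on every MCM 4-tamoxifen and 4-control array are given. Carriers called in an interaction do not all have the values of every group in it printed. Of each gene list, up to 4 called genes with the smallest p are named. Carriers named beyond that rule were chosen after their values were seen. Promoter windows and gene names came from RefSeq, GRCm38.p6. Alternatives covered covariates, weights, filters, normalization, probe sets, prior, arrays left out and replicate blocks. The array cluster, as a term and as a subset, was added after seeing the data.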

Additional observations from a re-analysis of the deposited data

Results flagged for a closer look

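In the 6 WT 4-control arrays, 21 carriers were checked for an outlying array and 2 had one, where chance gives about 1 in 20 groups. Slc25a37 had replicate 3 at 6.02 and the next array at 5.71, a gap of 0.737 of the group's range. Slc25a38 had replicate 3 at 7.75 and the next at 7.55, a gap of 0.684 of the range. Both lie on the same array, a male. Only the WT 4-control group was large enough for the check.

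The tamoxifen effect differed between MCM and WT mice, by the interaction test, for Slc25a13 (-1.22), Slc25a25 (0.63), Slc25a26 (-0.63), Slc25a34 (-1.50), Slc25a35 (-0.54) and Slc25a44 (0.39). It differed between 4 and 1 injections in MCM mice for Slc25a13 (-1.25), Slc25a25 (0.64), Slc25a26 (-0.87) and Slc25a38 (-0.57). Both tests use the same MCM 4-tamoxifen and 4-control arrays.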

How the results depend on the processing

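Counts of carriers called are given by setting. For MCM mice after 4 tamoxifen against 4 control injections (12), the count was 0 with only the arrays compared, 6 with weights by the variance of each group, 7 with female arrays only and 3 within the larger array cluster of MCM arrays. It was 7 to 15 with 1 array left out. For MCM against WT mice after control injections (1), it was 2 with only the arrays compared, 5 with array quality weights and 5 with group-variance weights. It was 0 with a second quantile normalization, no filter, female arrays only, the replicate block or the array cluster as a term, and 0 to 4 with 1 array left out. For the genotype interaction (6), it was 3 with only the arrays compared, with group-variance weights or with no filter, 0 with female arrays only and 2 to 10 with 1 array left out. For the interaction of 4 against 1 injections (4), it was 2 with only the arrays compared or no filter, 0 with female arrays only or within the cluster, and 2 to 8 with 1 array left out. After 1 tamoxifen injection in MCM mice and after 4 in WT mice it was 0 under every alternative run. For sex it was 0, and 0 to 1 with 1 array left out. With the replicate block, the counts were 8 for 4 tamoxifen injections in MCM mice, 2 for the genotype interaction and 2 for the dose interaction. Deviations of same-numbered MCM 4-tamoxifen and 4-control arrays correlated at 0.11, -0.04 and 0.05, 2 of the 3 best with their own number, and the numbers are not known to mark pairs. In the MCM 1-injection groups the values were 0.28, 0.07 and 0.25, each best with its own number. For WT tamoxifen against control they were 0.28, -0.15 and -0.20, and only replicate 1 was. Replicate 1 is the male of every group of 3, and sex was not removed from these deviations.

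Of the 23 called changes and differences of single carriers, 588 of 767 alternative values kept direction and call and 179 kept the direction only. Of 8 that were not called, 7 alternative values passed the test and 8 changed sign. With array quality weights, Slc25a12 changed by 0.0341, Slc25a3 by 0.0511 and Slc25a4 by 0.0308, and with female arrays only Slc25a37 changed by -0.000996. Without MCM 4-tamoxifen replicate 3, Slc25a12 changed by 0.0752, Slc25a20 by 0.145, Slc25a3 by 0.0565 and Slc25a4 by 0.0328. With 1 array left out, these carriers ranged from -0.35 to 0.08, -0.44 to 0.15, -0.23 to 0.06 and -0.12 to 0.03. The cause was not tested. The clusters are 8 MCM arrays at 11.47 or more and 13 arrays, all WT arrays among them, at 11.36 or less on an unannotated probe set, and 27 of 11799 unannotated probe sets separated them.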

Other observations

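Within the larger array cluster, which holds replicates 1 and 3 of the MCM 4-tamoxifen group and replicates 2 and 3 of the MCM 4-control group, the 3 carriers called were Slc25a13 (-1.48), Slc25a26 (-0.94) and Slc25a34 (-2.44), all among the 12. The median of the 7 carriers called lower was -0.575, -0.427 and -0.996 on MCM 4-tamoxifen replicates 1, 2 and 3. The median of the 5 called higher was 0.57, 0.31 and 0.34 on those arrays. The choice of carriers fixes the direction of both.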
